A study of Zanthoxylum armatum with 15 samples.

Results

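The unigenes described here are those of Zanthoxylum armatum, an aromatic tree of the citrus family, that were low in fruits and present in every other organ sampled. RNA-seq libraries had been made from fruits and from mature leaves, leaf buds, roots and stems of the variety Hanyuan putaoqing, with 3 replicates of each organ and material of 3 plants mixed in each replicate, and all organs shared 1 sampling month. Per the study's methods, fruits were full-grown and quickly building up aromatic compounds and fatty acids, so low levels here refer to 1 fruit stage. No treatment or mutation is described for the plants, and the organ was the only difference described between groups. Batches of extraction or sequencing are not given, and a batch that followed the organ could not be told apart from it. A unigene is an assembled transcript sequence that stands for a gene, and its level is given as CPM (estimated counts per 1000000 counts of the library). A unigene of the main assembly cluster (identifiers beginning with Cluster-12235) was taken where its lowest CPM in the 12 libraries of the other organs was at least 2 and its highest CPM in the 3 fruit libraries was at most 0.5 times that value. Of 111318 unigenes, 79040 belonged to the main cluster, 22655 of these reached 2 CPM in all 12 non-fruit libraries, and 104 met the whole rule. The low level in fruits was therefore selected on and is given as a description, without a test. The levels among the 4 other organs entered the rule only through the lowest library, and those are compared with tests.

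A gene name was available for 9 of the 104 from the supplementary pathway tables of the study, and the names belong mainly to auxin signalling, light and temperature signalling, and sugar metabolism. Auxin enters plant cells through AUX1/LAX influx carriers and acts by triggering the breakdown of Aux/IAA proteins, which otherwise hold back auxin-responsive transcription. PIF4, known from Arabidopsis, is a transcription factor that phytochrome inactivates in the light and that promotes elongation growth in shade and warmth. Fructokinase phosphorylates fructose released from sucrose and so opens the way of imported sugar into metabolism, which matters in organs fed through the phloem, fruits among them.

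Estimated counts summed to between 18802274 and 24081708 per library. Unigenes annotated to photosynthesis and its antenna proteins served as a check of the organ labels. Their 40 unigenes summed to between 7778 and 8593 CPM in fruits, 22109 and 22421 CPM in mature leaves, 5063 and 5690 CPM in leaf buds, 82.3 and 103 CPM in roots, and 5340 and 6283 CPM in stems. The green organs were thus separated from roots in every library. Leaf buds and stems overlapped, so this check cannot tell their labels apart. Replicates differed from each other by more than sampling noise in all organs, so none was a duplicate of another. In whole organs, fewer cells of a type and less RNA per cell cannot be told apart.

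Together the 104 unigenes held a small and steady share of the fruit libraries and a share several times larger in every other organ. Their CPM summed to 367.5, 396.6 and 370.3 in the fruit libraries. The sum was 2363, 2360 and 2320 CPM in mature leaves, 2572, 2663 and 2783 CPM in leaf buds, 3273, 3188 and 3159 CPM in roots, and 3619, 3657 and 3734 CPM in stems. Stems held the highest sums, and on this scale mature leaves the lowest of the 4 organs. With library sizes rescaled for composition by TMM, an alternative added after the data were seen, fruits had sums of 411 to 441 and mature leaves of 2853 to 2890, and the sums were 2234 to 2389 in leaf buds, 2763 to 3029 in roots and 3336 to 3484 in stems. Fruits then stayed lowest and stems highest without overlap, but leaf buds were the lowest of the 4 organs and mature leaves overlapped with roots. Single unigenes had a median of 2.23 CPM in their highest fruit library (range 0 to 45.0) and of 7.20 CPM in their lowest non-fruit library (range 2.001 to 92.8). On the FPKM scale, which also divides by unigene length, their median over the mean of the 3 fruit libraries was 1.32, against 14.4 over the mean of the 12 other libraries. The 22655 unigenes that reached 2 CPM in all 12 non-fruit libraries had a median of 13.5 FPKM over those 12 libraries. The length behind the FPKM had a median of 1623 bases in the 104 and of 1487 bases in the 22655, so neither level outside fruits nor length stood far from the rest.

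**Figure D1:**
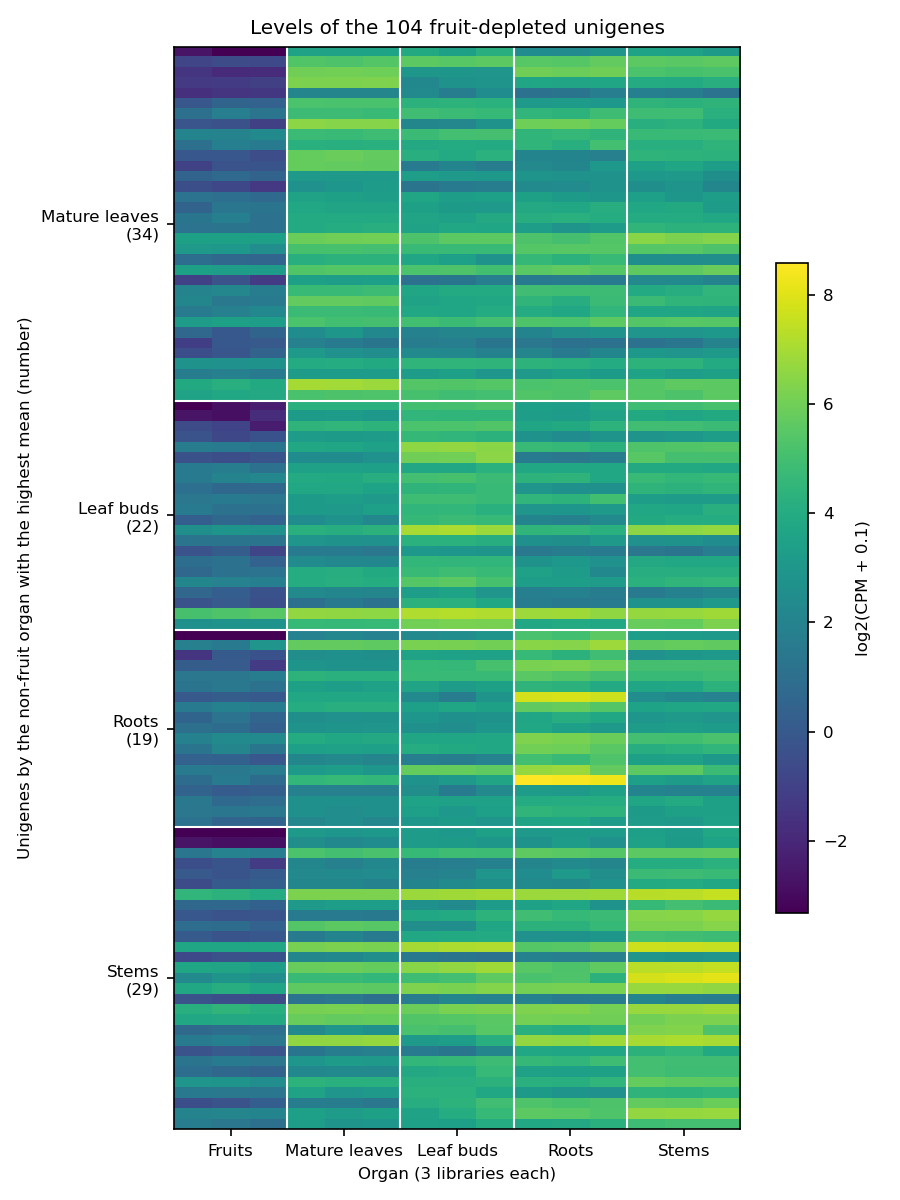
Heat map of log2(CPM + 0.1) of the 104 fruit-depleted unigenes (rows) in the 15 libraries (columns, 3 per organ, fruits at the left), with rows grouped by the non-fruit organ of highest mean and ordered by the ratio within each group. The fruit columns are the darkest in every row, and the groups hold 34, 22, 19 and 29 unigenes with the highest TMM-scaled mean in mature leaves, leaf buds, roots and stems.

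The ratio of the highest fruit CPM to the lowest non-fruit CPM, which defined the unigenes, had a median of 0.344 and quartiles of 0.263 and 0.415. In 80 of the 104 it lay above 0.25, and in 24 it was at most 0.25. Only 9 were at or under 0.05, and the next ratio was 0.0807. The 3 just inside the limit were Cluster-12235.56258 at a ratio of 0.495, Cluster-12235.60754 at 0.488 and Cluster-12235.63402 at 0.488. The 3 just outside were Cluster-12235.49632 at 0.5004, Cluster-12235.37060 at 0.504 and Cluster-12235.67537 at 0.507. Values on both sides of the limit were close together, so the list has no natural edge there.

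**Figure D2:**
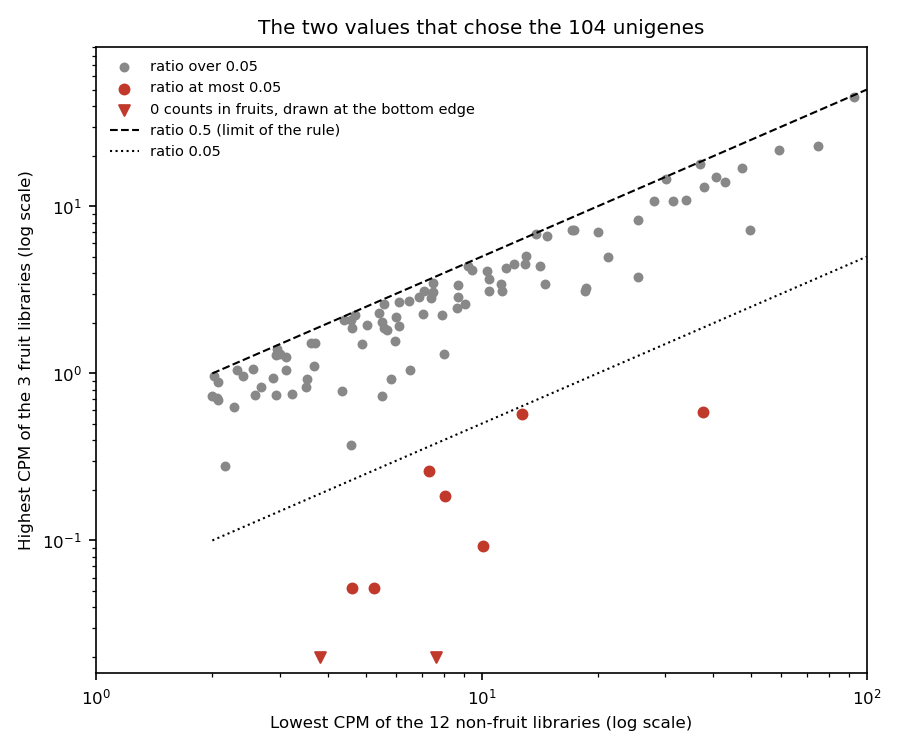
Highest CPM of the 3 fruit libraries (vertical, log scale) against lowest CPM of the 12 non-fruit libraries (horizontal, log scale) for the 104 unigenes, with lines at ratios of 0.5 and 0.05. Most points lie in a band under the upper line, and 9 lie at or under the lower one, 2 of them with 0 counts in fruits.

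Depletion in fruits took fewer unigenes than depletion in most other organs under the same rule. The 104 were 0.459% of the 22655 unigenes that could have met it. With each other organ in the place of fruits, the rule took 846 unigenes for mature leaves (3.62% of those that could have met it), 261 for leaf buds (1.16%), 1288 for roots (5.47%) and 28 for stems (0.1253%). The plain CPM of fruits and mature leaves reads lower than a TMM-scaled one, since their TMM factors were 0.867 to 0.901 and 0.813 to 0.826, against 1.04 to 1.18 in the other organs. With TMM-scaled CPM the counts were 89 for fruits, 580 for mature leaves, 382 for leaf buds, 1502 for roots and 25 for stems, in the same order of size. The recount for the other organs was chosen after the data were seen, and the differences between organs in these counts have no test.

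In the edgeR fit of all 15 libraries, which covered 57488 unigenes after a filter on low counts, all 104 passed the filter. A call required an absolute log2 fold change above 1 at an adjusted p below 0.05. Lower in fruits were 101 of the 104 against roots (16.2% of all unigenes tested), 104 against stems (10.6%), 103 against leaf buds (15.1%) and 104 against mature leaves (14%), and 100 were lower in all 4. These counts follow from the rule. The median log2 fold change of the 104 was −2.52 in fruits over roots, −2.91 over stems, −2.21 over leaf buds and −2.40 over mature leaves, and the 4 comparisons share the fruit libraries. The 4 that missed a call did so on the size of the change: Cluster-12235.56258, Cluster-12235.63402 and Cluster-12235.70593 at −0.80, −0.93 and −0.98 against roots, and Cluster-12235.60754 at −0.91 against leaf buds.

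Among the named unigenes, the most variable outside fruits was Cluster-12235.36768, annotated as an Aux/IAA protein, a repressor of auxin-responsive genes. It had 0.678, 0.629 and 0.741 CPM in the fruit libraries. It had 5.40, 5.37 and 6.36 CPM in mature leaves, 64.3, 66.3 and 90.2 CPM in leaf buds, 2.97, 2.58 and 3.25 CPM in roots, and 44.9, 33.8 and 34.0 CPM in stems. Leaf buds and stems were thus high, mature leaves and roots low, and no organ overlapped with another. Leaf buds exceeded roots by a log2 fold change of 4.60 (SE 0.17, adjusted p = 4.5e-15), and mature leaves were below leaf buds at −3.20 (SE 0.15, adjusted p = 2.9e-13). Roots were below stems at −3.72 (SE 0.17, adjusted p = 1.7e-13). Leaf buds over stems reached 0.88 (SE 0.13), short of the size required for a call.

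Both AUX1/LAX unigenes, annotated as auxin influx carriers, were less variable. Cluster-12235.27814 had 2.29, 2.61 and 2.08 CPM in fruits. It had 10.7, 9.98 and 11.3 CPM in mature leaves, 12.4, 9.08 and 10.8 CPM in leaf buds, 21.5, 20.0 and 15.5 CPM in roots, and 13.1, 13.8 and 20.1 CPM in stems. Roots lay above mature leaves and leaf buds in every library and overlapped with stems. Cluster-12235.27813, whose number is the next lower one, had 2.03, 1.76 and 1.16 CPM in fruits. It had 6.89, 7.12 and 7.37 CPM in mature leaves, 6.09, 5.52 and 7.53 CPM in leaf buds, 13.7, 10.5 and 8.72 CPM in roots, and 9.27, 9.64 and 9.11 CPM in stems. Both passed the test for any difference among the 4 organs (adjusted p = 0.00054 for Cluster-12235.27814 and 0.0015 for Cluster-12235.27813), and neither was called in a comparison of a pair of them. Their log2 levels had a correlation of 0.825 over the 12 non-fruit libraries, and whether the counting split fragments between them was not tested.

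The pair of unigenes annotated as PIF4 was highest in mature leaves. Cluster-12235.72330 had 0.834, 0.830 and 0.602 CPM in fruits. It had 55.3, 57.9 and 52.1 CPM in mature leaves, 18.2, 15.7 and 19.2 CPM in leaf buds, 4.01, 4.002 and 3.51 CPM in roots, and 21.2, 20.9 and 19.8 CPM in stems. Mature leaves stood above stems and leaf buds, and these above roots, in every library. Mature leaves exceeded leaf buds by a log2 fold change of 2.13 (SE 0.10, adjusted p = 3.3e-13) and stems by 1.81 (SE 0.10, adjusted p = 3.5e-12). They exceeded roots by 4.28 (SE 0.12, adjusted p = 4.4e-17). Cluster-12235.72331 kept this order over a narrower span. It had 0.834, 1.31 and 1.25 CPM in fruits, against 37.4, 35.9 and 35.7 CPM in mature leaves, 19.7, 20.9 and 19.6 CPM in leaf buds, 8.45, 9.37 and 7.98 CPM in roots, and 21.6, 19.9 and 21.3 CPM in stems. Mature leaves over leaf buds came to 1.34 (SE 0.10, adjusted p = 7.0e-10) and over stems to 1.19 (SE 0.10, adjusted p = 4.3e-09). With library totals alone in place of TMM these 2 values were 0.85 and 0.80 and no longer called. The log2 levels of the pair had a correlation of 0.994 over the 12 non-fruit libraries.

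Fructokinase (scrK) was represented by 2 unigenes with the lowest ratios among the named ones, 0.133 and 0.145. Cluster-12235.71141 was the more abundant. It had 3.55, 2.90 and 7.22 CPM in fruits, against 52.2, 53.1 and 49.9 CPM in mature leaves, 72.0, 70.6 and 65.6 CPM in leaf buds, 89.4, 85.7 and 113 CPM in roots, and 50.7, 55.0 and 51.8 CPM in stems. The third fruit library was above the other fruit libraries, but far below every library of the other organs. Cluster-12235.15993 had 0.730, 0.504 and 0.695 CPM in fruits. It had 9.19, 8.97 and 9.32 CPM in mature leaves, 24.0, 22.5 and 20.1 CPM in leaf buds, 6.57, 5.50 and 7.13 CPM in roots, and 7.12, 8.14 and 9.84 CPM in stems. Leaf buds were above all other organs for this unigene, by a log2 fold change of 1.75 over roots (SE 0.16, adjusted p = 5.5e-09) and 1.32 over stems (SE 0.15, adjusted p = 7.3e-07). Mature leaves were below leaf buds at −0.80 (SE 0.15), too small for a call. Cluster-12235.71141 was highest in roots instead, at 0.84 over stems (SE 0.18), also short of a call. The pair of fructokinase unigenes thus shared the low fruit level and had different peak organs.

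The remaining named unigenes differed little outside fruits. Cluster-12235.1771, annotated as LYPLA2, an enzyme that in mammals removes acyl groups from lysophospholipids and proteins, had 2.92, 3.10 and 2.08 CPM in fruits. It had 11.2, 11.1 and 10.5 CPM in mature leaves, 13.5, 14.1 and 19.6 CPM in leaf buds, 14.1, 13.3 and 14.1 CPM in roots, and 14.9, 15.05 and 13.9 CPM in stems. Of all 104 it had the smallest spread over the 12 non-fruit libraries after TMM scaling, an SD of 0.137 on the log2 scale, and the test for any difference among the 4 organs gave an adjusted p of 0.81. Cluster-12235.13658, annotated as cobA, a methyltransferase on the way to sirohaem, had 3.23, 3.48 and 2.87 CPM in fruits. Its means were 9.35 ± 0.106 CPM in mature leaves, 9.11 ± 1.50 in leaf buds, 9.19 ± 1.03 in roots and 10.9 ± 1.09 in stems (SD, n = 3 each), and no pair of these organs was called, although the test for any difference among the 4 gave an adjusted p of 0.011. The ratio of 0.466 made cobA the named unigene closest to the limit. With TMM-scaled CPM its highest fruit value was 3.87 and its lowest non-fruit value 6.34, so on that scale it did not meet the rule.

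**Figure D3:**
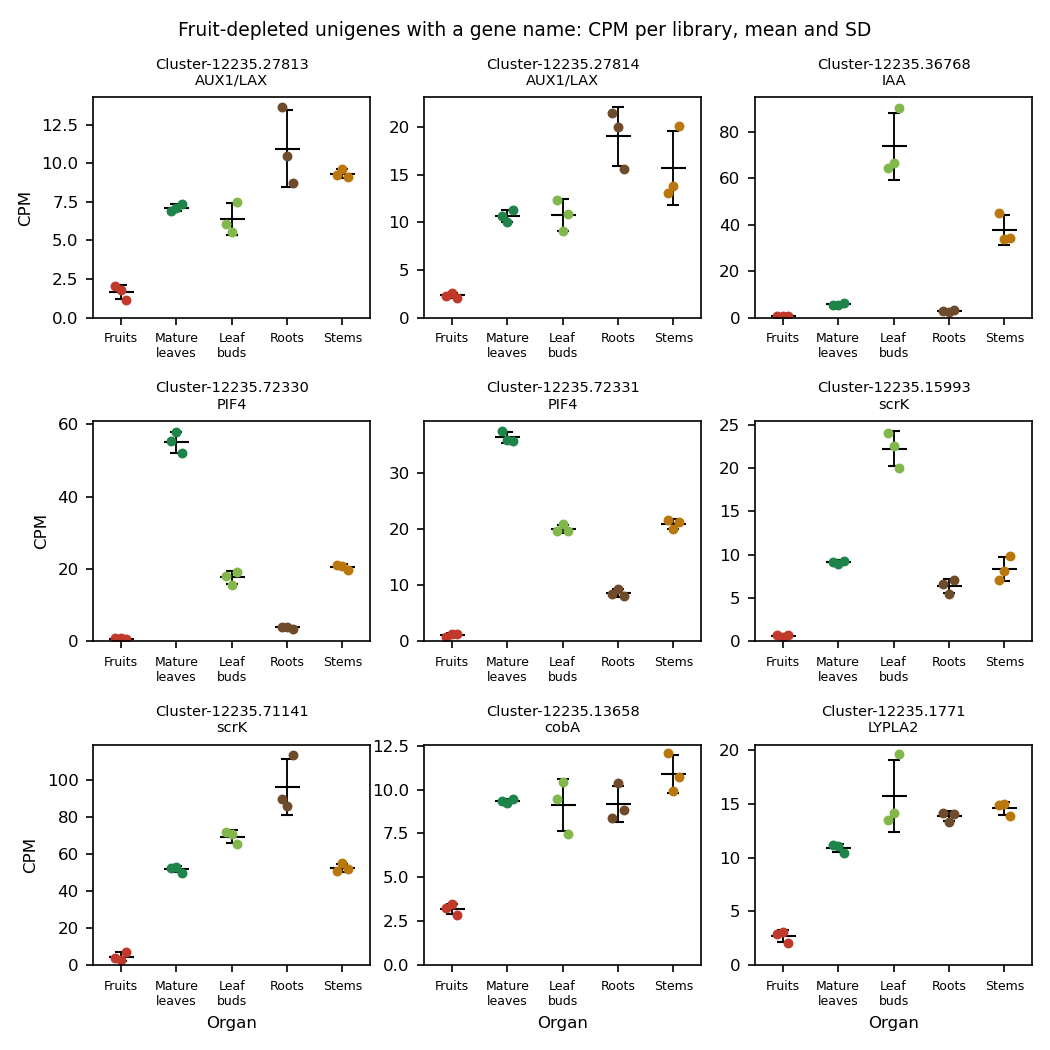
CPM (vertical, linear, from 0) of the 9 named fruit-depleted unigenes in each library of the 5 organs, with fruits at the left, points for libraries and bars for mean and SD (n = 3). The Aux/IAA unigene is highest in leaf buds, both PIF4 unigenes in mature leaves, and LYPLA2 and cobA vary least outside fruits.

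All 9 names come from 19 unigenes that the study had listed by pathway as lower in fruits, a list chosen on these libraries and therefore not independent of the rule. All 19 were called lower in fruits in all 4 comparisons. Of its 10 unigenes of hormone signal transduction, 5 met the rule. The other 5 did not for different reasons. An auxin response factor (Cluster-12235.9341) and a further Aux/IAA unigene (Cluster-12235.10759) had lowest non-fruit levels of 0.691 and 0.200 CPM, under the minimum. A SAUR unigene (Cluster-12235.5568), of a family of early auxin-responsive genes, had 1.75 CPM there, also under the minimum. Its ratio of 0.600 was past the limit as well. NPR1 (Cluster-12235.11128), a salicylic acid receptor in Arabidopsis, and a type-A response regulator of cytokinin signalling (Cluster-12235.72047) had ratios of 0.533 and 0.541, just past the limit. None of the 17 unigenes annotated to brassinosteroid biosynthesis met the rule, but only 3 of them reached the minimum and could have met it. Of all unigenes that could have met the rule 0.459% did, so a count of 0 says little about this list. Of the 16 brassinosteroid unigenes tested, 3 were lower and 7 higher in fruits than in roots, against 16.2% and 17.7% of all unigenes tested. In fruits against stems 9 were lower and 3 higher (10.6% and 11.9% of all), against leaf buds 10 and 2 (15.1% and 13.9%), and against mature leaves 7 and 4 (14% and 12.2%). Of the hormone signal transduction annotation as a whole, only 20 of 576 identifiers were held, and none of those 20 met the rule. Only 12 of the 20 reached the minimum, so this count of 0 says little either.

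A group of 9 of the 104 was at or near 0 in fruits, with ratios of at most 0.05, a grouping made after the values were seen. None of them carries a gene name in the sources used here. Cluster-12235.11413 and Cluster-12235.77135 had 0 counts in all 3 fruit libraries. A total of 3 counts over the fruit libraries was taken as the approximate 95% upper limit (Poisson) for a count of 0. It corresponds to 0.0464 CPM, and fold values against it are not absolute minimums.

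Cluster-12235.11413 had 8.73, 7.61 and 7.94 CPM in mature leaves, 9.49, 8.12 and 10.8 CPM in leaf buds, 8.34, 8.87 and 9.20 CPM in roots, and 10.3, 9.04 and 14.1 CPM in stems. Against that limit it was at least 174-fold lower in fruits than in mature leaves and at least 239-fold lower than in stems. Which of the 4 organs overlapped depended on the scaling: on the CPM scale mature leaves lay below stems, while with TMM-scaled CPM they overlapped with stems (9.32 to 10.6 for Cluster-12235.11413 in mature leaves, 8.42 to 13.1 in stems). The test for any difference among them gave an adjusted p of 0.11. Cluster-12235.77135 was instead highest in roots. It had 3.80, 4.39 and 3.82 CPM in mature leaves, 4.76, 5.65 and 6.97 CPM in leaf buds, 36.0, 31.0 and 48.2 CPM in roots, and 10.2, 9.17 and 8.28 CPM in stems. Against the limit, Cluster-12235.77135 was at least 822-fold lower in fruits than in roots and at least 86.2-fold lower than in mature leaves. Roots exceeded stems by a log2 fold change of 2.03 (SE 0.18, adjusted p = 2.2e-08).

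Cluster-12235.55218 was the most abundant of the 9 on the FPKM scale and nearly level outside fruits. It had 0.469, 0.588 and 0.509 CPM in fruits. It had 40.4, 37.7 and 42.0 CPM in mature leaves, 48.2, 44.4 and 48.4 CPM in leaf buds, 44.6, 44.1 and 53.4 CPM in roots, and 48.3, 46.2 and 50.0 CPM in stems. The 34 counts it had over the 3 fruit libraries compare with 2537 to 3247 counts over the 3 libraries of each other organ, and the adjusted p for any difference among these 4 organs was 0.16. Cluster-12235.55217, the next lower number, was also among the 104, at a ratio of 0.174, with 2.03 to 3.26 CPM in fruits and 18.7 to 30.4 CPM elsewhere.

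Cluster-12235.76025 combined near absence from fruits with a low level in leaf buds. It had 0.261, 0.168 and 0.185 CPM in fruits, against 64.5, 65.8 and 61.7 CPM in mature leaves, 7.72, 7.77 and 7.30 CPM in leaf buds, 63.9, 59.7 and 63.0 CPM in roots, and 37.2, 34.1 and 35.9 CPM in stems. Leaf buds lay far below the 3 other organs and above fruits in every library. Mature leaves exceeded leaf buds by a log2 fold change of 3.56 (SE 0.11, adjusted p = 3.1e-16), and leaf buds were below roots at −3.08 (SE 0.10, adjusted p = 1.5e-15).

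The other 5 had between 1 and 23 counts in fruits in total. Cluster-12235.11414, the number after the unigene with 0 counts above, had 3 counts in fruits, against 1189 in mature leaves, 2358 in leaf buds, 693 in roots and 2125 in stems. The ratio of leaf buds over fruits was 734, with a 95% counting interval (exact Poisson) from 251 to 3560, and leaf buds exceeded roots by a log2 fold change of 1.50 (SE 0.15, adjusted p = 3.4e-08). Cluster-12235.20432 had 1 count in fruits, against 984 in leaf buds and 354 in roots, and Cluster-12235.72252 had 3, against 335 in mature leaves and 712 in stems. Cluster-12235.10191 and Cluster-12235.11423 had 6 and 23 counts in fruits and were highest in leaf buds, at 22.2 ± 0.639 and 37.9 ± 2.44 CPM (SD, n = 3). Of the 9, 3 stayed within a 2-fold range of TMM-scaled organ means outside fruits, namely Cluster-12235.11413, Cluster-12235.55218 and Cluster-12235.72252. Intervals and limits of this kind cover counting error only.

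**Figure D4:**
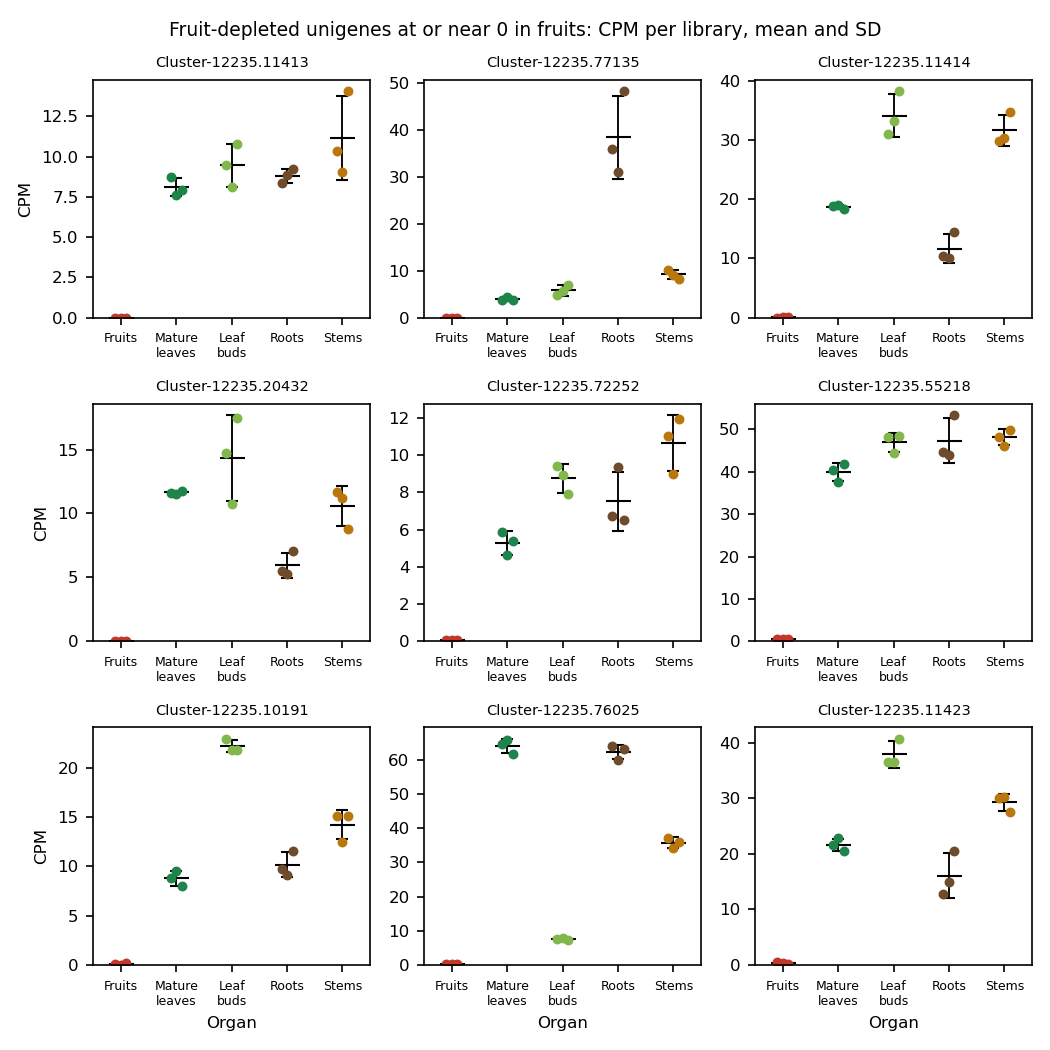
CPM (vertical, linear, from 0) of the 9 unigenes at or near 0 in fruits, in each library of the 5 organs, with fruits at the left, points for libraries and bars for mean and SD (n = 3). Fruit points lie on or next to 0 in every panel, while the level elsewhere is nearly even in Cluster-12235.55218 and peaks in roots in Cluster-12235.77135.

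Outside fruits, the 104 were less even than the 22655 they came from. In the test for any difference among mature leaves, leaf buds, roots and stems, 98 of 104 (94.2%) passed an adjusted p of 0.05, against 77.8% of all unigenes tested and 88.2% of the 22655 present in all 12 non-fruit libraries. The highest TMM-scaled organ mean exceeded the lowest by at most 2-fold in 32 of the 104 (30.8%) and in 48.3% of the 22655. In the same number, 32 of 104, none of the 6 comparisons between pairs of these organs gave a call, against 48.3% of the 22655. The 6 that did not pass the test for any difference were Cluster-12235.11413, Cluster-12235.11663, Cluster-12235.1771, Cluster-12235.35894, Cluster-12235.42232 and Cluster-12235.55218, with adjusted p from 0.075 to 0.81. Their levels outside fruits cannot be called equal from this. After Cluster-12235.1771, the smallest SDs on the log2 scale were 0.148 for Cluster-12235.55218 and 0.149 for Cluster-12235.42232, which had 6.51 ± 0.195 CPM in fruits and means between 15.7 and 21.6 CPM in the other organs. With TMM-scaled CPM, Cluster-12235.42232 had 7.55 in its highest fruit library and 14.5 in its lowest non-fruit library, and did not meet the rule.

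In the comparisons with stems, most calls among the 104 were for a higher level in stems. Roots were lower than stems in 34 of 104 (18.4% of all unigenes tested) and higher in 14 (17%). Leaf buds were lower than stems in 22 (8.02% of all) and higher in 7 (10.6% of all). Mature leaves were lower than stems in 24 (15.5% of all) and higher in 13 (18.4% of all). The shares of the 104 lower than stems were 32.7% for roots, 21.2% for leaf buds and 23.1% for mature leaves, each above that background. The shares of the 104 higher than stems were 13.5%, 6.73% and 12.5%, each below it. Among the 22655, the shares lower than stems were 15.9% for roots, 6.74% for leaf buds and 11% for mature leaves, and the shares higher than stems were 10.1%, 2.39% and 13.6%. Set against these, the 104 were called more often in both directions for roots and leaf buds, and more often lower but less often higher for mature leaves. These shares are descriptions and their differences were not tested.

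In the 3 comparisons without stems, the shares of the 104 lay closer to those of all unigenes tested, which are given in brackets. Mature leaves were higher than leaf buds in 21 (16.9%) and lower in 16 (16.8%). Mature leaves were higher than roots in 21 (20.7%) and lower in 18 (19.2%). Leaf buds were higher than roots in 25 (22.8%) and lower in 22 (18.6%). Among the 22655 these shares were 16% higher and 8.78% lower for mature leaves against leaf buds, 17.7% and 11.5% for mature leaves against roots, and 15.5% and 14.5% for leaf buds against roots, each below the share of the 104 (20.2% and 15.4%, 20.2% and 17.3%, 24% and 21.2%). The split of the comparisons with mature leaves depended on the scaling. With library totals alone in place of TMM, mature leaves were higher in 14 and lower in 24 against leaf buds, 9 and 25 against roots, and 11 and 35 against stems, with the median of all unigenes shifted by −0.49, −0.44 and −0.39 on the log2 scale. Leaf buds and roots against stems moved by at most 2 calls in a direction under that scaling. Under the main fit, the median log2 fold change of the 104 was −0.36 for leaf buds over stems, −0.36 for roots over stems and −0.03 for mature leaves over stems, against 0.08, 0 and 0.08 for all unigenes tested.

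**Figure D5:**
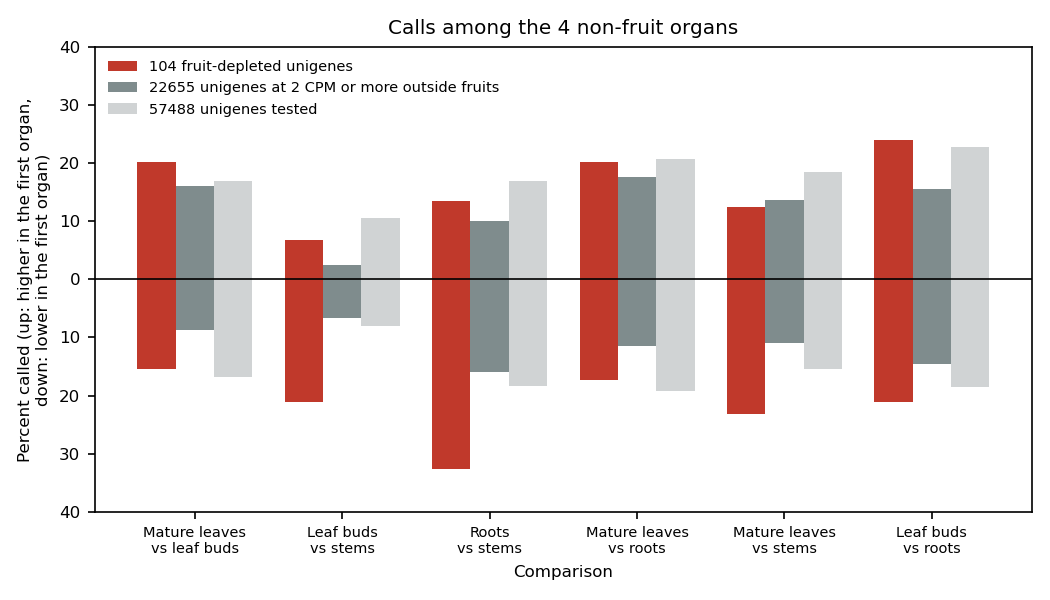
Percent of unigenes called in each of the 6 comparisons among non-fruit organs (upward: higher in the organ named first, downward: lower), for the 104 fruit-depleted unigenes, the 22655 unigenes at 2 CPM or more in all non-fruit libraries, and all 57488 unigenes tested. In the comparisons with stems the downward bars of the 104 reach 32.7%, 21.2% and 23.1% for roots, leaf buds and mature leaves, and are longer than both other bars.

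Single organs marked out part of the 104. Called higher in 1 organ than in each of the other 3 were 8 in mature leaves (7.69%, against 7.99% of the 22655), 2 in leaf buds (1.92%, against 1.03%), 9 in roots (8.65%, against 4.88%) and 9 in stems (8.65%, against 1.61%). Called lower in 1 organ than in each of the other 3 were 6 in mature leaves (5.77%, against 2.94% of the 22655), 6 in leaf buds (5.77%, against 2.18%), 9 in roots (8.65%, against 6.52%) and 0 in stems (against 0.212%). For stems DESeq2 also gave 0, and 1 unigene was lower there at an unadjusted edgeR p under 0.05 in all 3 comparisons, whatever the size of the change. These differences from the 22655 were not tested.

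The steepest root unigenes were Cluster-12235.71366 and Cluster-12235.71367. Cluster-12235.71366 had 0.887, 1.05 and 0.926 CPM in fruits. It had 13.5, 13.8 and 13.5 CPM in mature leaves, 4.89, 3.11 and 6.97 CPM in leaf buds, 226, 230.3 and 205 CPM in roots, and 5.62, 4.54 and 3.76 CPM in stems. Roots exceeded stems by a log2 fold change of 5.53 (SE 0.18, adjusted p = 1.9e-15), and mature leaves were below roots at −3.58 (SE 0.16, adjusted p = 1.0e-13). Cluster-12235.71367 was likewise highest in roots and next highest in mature leaves, with 2.13 ± 0.628 CPM in fruits, 23.9 ± 0.915 in mature leaves and 351 ± 36.9 in roots (SD, n = 3 each). The log2 levels of these neighbours had a correlation of 0.992 over the 12 non-fruit libraries, and whether they share fragments was not tested.

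In mature leaves the leading unigenes were Cluster-12235.75699 and Cluster-12235.23033. Cluster-12235.75699 had 0.313, 0.336 and 0.371 CPM in fruits, against 75.8, 75.7 and 77.2 CPM in mature leaves, 4.59, 6.73 and 7.07 CPM in leaf buds, 12.8, 12.2 and 12.9 CPM in roots, and 16.0, 15.5 and 18.3 CPM in stems. Mature leaves exceeded stems, the nearest organ, by a log2 fold change of 2.60 (SE 0.13, adjusted p = 3.9e-13). Its ratio of 0.0807 was the first above the 9 nearly absent unigenes. Cluster-12235.23033 had 0.624 ± 0.179 CPM in fruits, 52.2 ± 1.33 in mature leaves, 3.37 ± 0.582 in leaf buds, 5.65 ± 2.03 in roots and 11.4 ± 1.75 in stems (SD, n = 3 each), and mature leaves exceeded stems by 2.60 (SE 0.19, adjusted p = 2.6e-10).

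In stems the leading unigenes were Cluster-12235.35292 and Cluster-12235.63483. Cluster-12235.35292 had 5.16, 7.01 and 5.56 CPM in fruits. It had 26.9, 27.2 and 23.5 CPM in mature leaves, 29.4, 32.7 and 49.4 CPM in leaf buds, 35.7, 38.9 and 20.1 CPM in roots, and 226, 251 and 277 CPM in stems. Stems were far above the 3 other organs, among which roots overlapped with both leaf buds and mature leaves. Leaf buds were below stems at −2.85 (SE 0.19, adjusted p = 2.4e-10). Cluster-12235.63483 had 0.856 ± 0.0895 CPM in fruits, means of 4.92 to 6.51 CPM in mature leaves, leaf buds and roots, and 27.8 ± 0.700 CPM in stems, and mature leaves were below stems at −2.07 (SE 0.20, adjusted p = 1.7e-08).

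In leaf buds, the 2 unigenes called above all other non-fruit organs were Cluster-12235.69266 and Cluster-12235.70592. Cluster-12235.69266 had 3.12, 2.81 and 2.39 CPM in fruits. It had 13.7, 13.3 and 11.3 CPM in mature leaves, 93.0, 99.8 and 88.9 CPM in leaf buds, 26.4, 24.2 and 20.2 CPM in roots, and 39.1, 40.7 and 41.6 CPM in stems. The 4 organs did not overlap, and leaf buds exceeded stems by a log2 fold change of 1.13 (SE 0.11, adjusted p = 5.2e-08). Cluster-12235.70592 had 0.781 ± 0.164 CPM in fruits, 2.27 ± 0.417 in mature leaves, 17.4 ± 3.19 in leaf buds, 2.91 ± 0.171 in roots and 7.22 ± 1.03 in stems (SD, n = 3 each), with leaf buds over stems at 1.18 (SE 0.18, adjusted p = 1.9e-05).

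The most abundant of the 104 per length outside fruits had no gene name either. Cluster-12235.60043 led with a mean of 205 FPKM over the 12 non-fruit libraries, and its organ means were 25.6 ± 2.99 FPKM in fruits, 125 ± 5.37 in mature leaves, 223 ± 32.7 in leaf buds, 95.04 ± 13.7 in roots and 376 ± 28.6 in stems (SD, n = 3 each). Cluster-12235.35895 and Cluster-12235.44515 followed with 136 and 133 FPKM. Cluster-12235.35895 had 22.4 ± 3.59 FPKM in fruits and was highest in stems, at 196 ± 17.7 FPKM. Cluster-12235.44515 had 25.9 ± 3.31 FPKM in fruits and was also highest in stems, at 188 ± 11.9 FPKM (SD, n = 3 each). Cluster-12235.55218, described above, had 115 FPKM. Cluster-12235.74614 had a mean of 92.7 FPKM and shared with Cluster-12235.76025 a low level in leaf buds. It had 2.97, 3.40 and 2.501 CPM in fruits, against 96.2, 96.6 and 103 CPM in mature leaves, 8.71, 10.2 and 18.0 CPM in leaf buds, 99.9, 95.5 and 120.0 CPM in roots, and 131, 140.0 and 131 CPM in stems. Leaf buds were below stems at −3.54 on the log2 scale (SE 0.19, adjusted p = 1.4e-11) and below roots at −3.16 (SE 0.19, adjusted p = 9.2e-12).

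Identifiers of the 104 were often neighbours in number. Whether neighbouring numbers stand for related sequences was not tested. There were 10 runs of consecutive numbers, which held 23 unigenes. The unigenes directly next in number to any of the 104 and at 2 CPM or more in all non-fruit libraries were 73 different ones, and 23 of these (31.5%) were themselves among the 104, against 0.459% of all 22655. Levels of neighbours over the 12 non-fruit libraries were not always alike. In Cluster-12235.12581 to Cluster-12235.12583 the correlation of log2 levels lay between −0.87 and 0.77, in the 4 unigenes Cluster-12235.51726 to Cluster-12235.51729 between 0.49 and 0.88, and in Cluster-12235.60043 and Cluster-12235.60044 it was 0.979. These correlations are descriptions over 12 libraries that share organ and depth.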

How the data were processed

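Total RNA of 15 libraries (5 organs, 3 replicates each) had been sequenced on an Illumina HiSeq instrument and assembled with Trinity without a genome. Per the labels' processing notes, CASAVA was used on the raw data. Each unigene has 2 values in a library's table as the authors deposited it, an estimated count and an FPKM. No source used here names the counting program. Deposited FPKM values are relative to unigene length and library size. Estimated counts were not normalized between libraries by the authors, and values of closely similar unigenes are uncertain. Stem tables carry another abbreviation inside and were assigned by the sample labels.

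The rule was applied to CPM from the counts. Rounded counts of all libraries were fitted in 1 model with edgeR 4.0.16 in R 4.3.3: TMM, filterByExpr (minimum count 10, minimum total 15), quasi-likelihood F tests on 10 residual degrees of freedom, prior count 0.125, and Benjamini-Hochberg adjustment over 57488 unigenes. SEs are the absolute log2 fold change over the square root of F. On simulated data of 54581 unigenes, mature leaves were compared with leaf buds, roots and stems. Of 200 changed unigenes 199, 199 and 200 were called, and 10, 3 and 5 other unigenes were called as well. The planted changes lay in mature leaves alone, at an absolute log2 fold change of at least 2. They were placed in unigenes with a mean of at least 2 CPM. Recovery of changes nearer to the size required for a call was not tested. Intervals came from scipy 1.17.1, tables from pandas 2.3.3 and figures from matplotlib 3.10.9. The unigenes, pathway lists and named-gene rule were chosen with earlier results of these data known. Named were all with a gene name, the 5 highest by FPKM outside fruits, the 5 lowest ratios and all with 0 fruit counts, 3 on each side of the limit, up to 2 leading each non-fruit organ, and the 3 steadiest. Cluster-12235.10191, Cluster-12235.11423, Cluster-12235.76025, Cluster-12235.55217, Cluster-12235.70593, Cluster-12235.11663, Cluster-12235.35894, the runs of neighbours and list unigenes that missed the rule were named after their values were seen. Alternatives were DESeq2 1.42.0 (Wald or likelihood ratio test), its size factors, library totals alone, other filters, scales and thresholds, a replicate block, only the libraries compared, and each library left out. Replicates are separate pools of plants per the study's methods. No sequences were analysed here.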

Additional observations from a re-analysis of the deposited data

How the results depend on the processing

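Leaving out 1 library in turn gave 105 to 132 unigenes that met the rule, and 104 of them were those described, since fewer libraries make the rule easier to meet. Without fruits replicate 2 the count was 132. With members kept, leaving out 1 library gave 97 to 99 unigenes that differed among the 4 non-fruit organs, and 36 to 40 changed in mature leaves against leaf buds, 29 to 35 in leaf buds against stems, 43 to 49 in roots against stems, 37 to 42 in mature leaves against roots, 36 to 39 in mature leaves against stems and 45 to 48 in leaf buds against roots. In fruits the ranges were 101 to 102 against roots, 104 against stems, 101 to 103 against leaf buds and 104 against mature leaves.

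A stricter ratio of 0.25 left 24 unigenes. An absolute log2 fold change over 2 left 17, 10, 12, 14, 14 and 17 calls in these 6 comparisons in the order above, and 65 in fruits against leaf buds. The other scales and minimums moved the number of unigenes by less than 1.5 times, to 70 at a minimum of 5 CPM and to 128 at 1 CPM. The unit decided some members: 89 met the rule with TMM-scaled CPM, of which 79 were shared, and 127 with FPKM divided by their sum, of which 85 were shared. The mean summed CPM of the 104 moved with TMM scaling to 425 in fruits, 2868 in mature leaves, 2327 in leaf buds, 2887 in roots and 3409 in stems. For the 31 unigenes chosen by the named-gene rule, the 194 log2 fold changes called in the main fit were recomputed under both other scalings. They include the comparisons with fruits, whose calls follow from the rule, so the totals say little about stability. Of the recomputed values 382 kept their call, none reversed and 6 fell below the threshold, all with library totals alone.

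No pairing by replicate number was seen in the values: of 30 pairs of libraries with the same number, 0 had deviations correlated above 0.1 (range −0.13 to 0.07). Of 60 pairs with different numbers, 1 was above 0.1. Whether organs with the same number came from the same plants is not described. Deviations among 3 libraries per organ cannot decide it. With the number as a replicate block, 33 in place of 34 unigenes were lower in roots than in stems, and no other count of calls changed. Values under a few counts per library, as for the unigenes nearly absent from fruits, are limited by depth.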
